A study of Mus musculus with 6 samples.

Results

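This account concerns 9 surface genes that hematopoietic stem cells share with blood vessel endothelium, namely Cd34, Tek, Tie1, Adgrl4, Esam, Procr, Eng, Cdh5 and Kdr. They were taken as every probe set whose platform gene symbol was one of the 9, which gave 12 of 45037 probe sets (9 of 18193 named genes). The genes had been chosen by their intensities in the same comparison of genotypes, so their differences are given as a description with no test. The samples were 6 single-colour arrays of RNA from sorted hematopoietic stem cells of adult mice, 3 of them homozygous for a PU.1 knock-in allele (PU.1 ki/ki) and 3 wild type. In both groups the sort took lineage-negative cells with Sca1, cKit and CD150 and without CD48, a phenotype used for long-term stem cells. The labels do not describe the allele further, nor say from which tissue the cells came or whether replicates were separate animals or pools, so the errors cover the scatter of these arrays alone, part of which may be technical. PU.1 is an ETS family transcription factor encoded by Spi1, and the comparison asked how its knock-in allele changed gene expression in these cells.

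Hematopoietic stem cells arise in the embryo from endothelium of the large arteries, and adult stem cells keep a set of receptors and adhesion proteins that vessels also carry. Some of these, such as the protein C receptor and ESAM, are used to purify stem cells, while TIE2 (the product of Tek) takes part in keeping them quiescent in the bone marrow through angiopoietin. CD34 differs in that the most quiescent stem cells of adult mice carry little of it, whereas progenitors and vessels carry more. Other proteins of the set, VE-cadherin (Cdh5) and VEGF receptor 2 (Kdr), are typical of endothelium and of embryonic precursors rather than of adult stem cells.

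The proximal promoters of Cd34, Tek and Adgrl4 are shown because these were the 3 genes whose values did not overlap between the groups. Each sequence runs from 250 bases before to 50 bases after the annotated start, taken from RefSeq on GRCm38.p6, at chr1:194938571-194938870 on the plus strand for Cd34, chr4:94739039-94739338 on the plus strand for Tek and chr3:151437632-151437931 on the plus strand for Adgrl4. Capitals mark the letters GGAA, or TTCC on the other strand, the core recognised by ETS factors.
Cd34: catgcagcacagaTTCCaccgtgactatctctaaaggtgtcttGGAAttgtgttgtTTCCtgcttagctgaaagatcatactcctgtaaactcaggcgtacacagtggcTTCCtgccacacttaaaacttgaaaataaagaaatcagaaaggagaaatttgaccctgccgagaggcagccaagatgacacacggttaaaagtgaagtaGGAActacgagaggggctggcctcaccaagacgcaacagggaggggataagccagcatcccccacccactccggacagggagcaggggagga
Tek: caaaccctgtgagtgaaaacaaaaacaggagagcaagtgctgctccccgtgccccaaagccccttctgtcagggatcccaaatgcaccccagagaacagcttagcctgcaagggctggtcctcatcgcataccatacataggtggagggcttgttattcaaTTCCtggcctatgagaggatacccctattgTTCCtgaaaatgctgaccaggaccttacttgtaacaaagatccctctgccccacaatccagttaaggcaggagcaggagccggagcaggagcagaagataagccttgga
Adgrl4: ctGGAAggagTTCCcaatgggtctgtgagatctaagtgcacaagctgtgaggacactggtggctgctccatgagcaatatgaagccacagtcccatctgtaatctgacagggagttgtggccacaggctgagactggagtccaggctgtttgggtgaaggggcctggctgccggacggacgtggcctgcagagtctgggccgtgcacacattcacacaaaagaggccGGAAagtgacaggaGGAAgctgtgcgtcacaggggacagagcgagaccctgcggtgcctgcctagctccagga

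Promoters of 7 of the 9 genes were in the RefSeq table. The ETS core GGAA was found on either strand in 7 of these 7 and in 96.0% of 32851 mouse promoters of this length, so its presence is usual. It occurred 5 times at Cd34, 2 times at Tek and 4 times at Adgrl4, against a median of 3 over all promoters. The longer PU-box core GAGGAA, which contains the ETS core, was found (also as TTCCTC) at Tie1, Adgrl4 and Eng, 3 of 7, against 28.3% of all promoters. Of the 3 genes printed, Tek held the GATA motif AGATAA, counted on the other strand as TTATCT, which 11.2% of all promoters hold. The E-box CANNTG was present in 6 of the 7 promoters, all but that of Cd34, and in 72.3% of all promoters. These matches describe the letters of the windows.

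Values below are intensities as the authors deposited them, where 10 is the lowest value of the table and array medians were 41 to 46. Differences are those of mean log2(intensity + 1), PU.1 ki/ki minus wild type, with the standard error (SE) of a linear model in limma, and they understate the change of dim probe sets. Spi1 itself read 170, 212 and 161 on PU.1 ki/ki replicates 1, 2 and 3, against 158, 195 and 199 on the wild-type replicates, a difference of -0.03 ± 0.18 (SE; limma adjusted p = 0.992). The wild-type arrays were the less alike, with correlations across probe sets of 0.831 to 0.858 among them against 0.940 to 0.951 among PU.1 ki/ki arrays. Bright probe sets, those with a median of at least 512 on the other 5 arrays, read at least 4-fold below that median in 0.119 to 0.219% of cases on PU.1 ki/ki arrays. In wild type that share was 1.12% for replicate 1, 11.5% for replicate 2 and 11.3% for replicate 3. For a wild-type array the other 5 include all 3 PU.1 ki/ki arrays, so genes far higher in PU.1 ki/ki add to its share. Slamf1, which encodes the CD150 of the gate, read 696, 1525 and 170 in PU.1 ki/ki, against 440, 54 and 42 in wild type, so that wild-type replicates 2 and 3 were low for a gene used in the sort. Other gate genes pointed the other way. Kit was lowest on wild-type replicate 1, at 374, against 1622 and 1001 on replicates 2 and 3. Cd48, which the gate excludes, read 704 on replicate 1, against 193 and 75 on replicates 2 and 3. Differences of the 9 genes are also given against wild-type replicate 1 alone, because it had the smallest share of low bright readings in wild type. Of all 45037 probe sets, 0 (0%) had an adjusted p under 0.05 in limma, and 3731 had an unadjusted p under 0.05.

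The 9 genes did not share a direction. Their brightest probe sets were higher in PU.1 ki/ki for 6 genes and lower for 3, with a median difference of 0.18, where the median of all 18193 genes was 0.01. With dim probe sets left out, the median of all remaining probe sets was 0.16. That setting also drops Cdh5 and Kdr, so it has no median of the 9 genes to set beside it. Of the 12 probe sets, 7 were higher and 5 lower. Cd34, Adgrl4 and Tek accounted for all 4 probe sets whose groups did not overlap, each higher in PU.1 ki/ki, and 0 probe sets lay wholly lower. Over all probe sets 6.62% lay wholly higher and 5.46% wholly lower. Since this contrast chose the genes, nothing is read from that count.

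**Figure D1:**
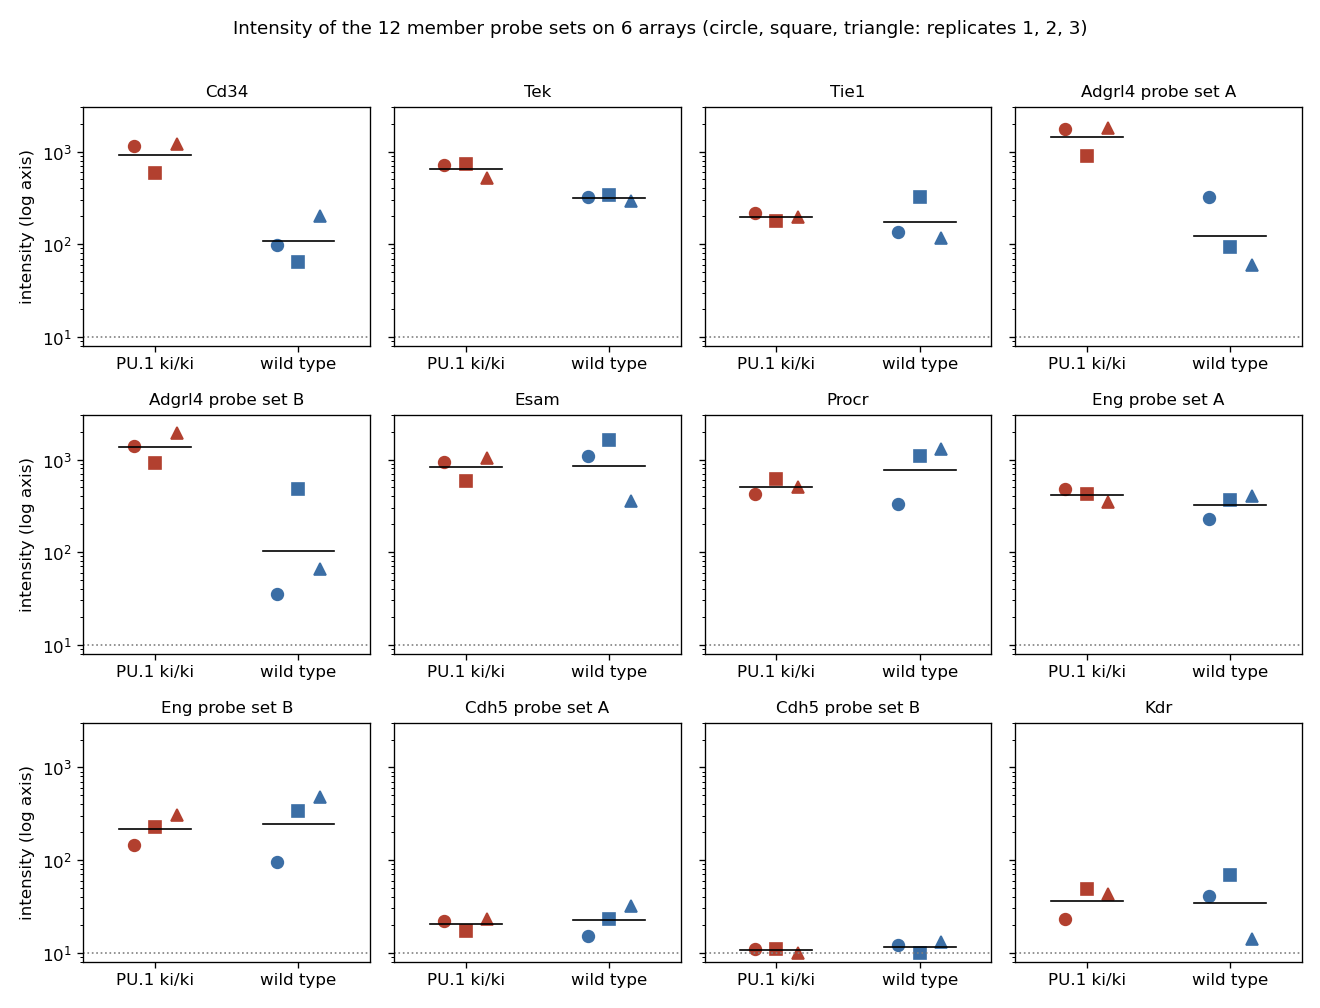
Intensity (log axis) of each of the 12 probe sets on PU.1 ki/ki arrays (left in each panel) and wild-type arrays (right), with circles, squares and triangles for replicates 1, 2 and 3, black lines for the mean on the log2(intensity + 1) scale and a dotted line at the table minimum of 10. Probe set A of a gene is its brighter one. The groups are apart for Cd34, Tek and both Adgrl4 probe sets, and Cdh5 and Kdr lie low in both groups.

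Cd34 encodes a sialomucin of stem and progenitor cells and of vessel endothelium. Its probe set 1416072_at read 1152, 583 and 1196 on PU.1 ki/ki replicates 1, 2 and 3, against 98, 64 and 200 on wild-type replicates 1, 2 and 3. The lowest PU.1 ki/ki array was thus above the highest wild-type array, and the wild-type arrays themselves spanned 3.13-fold. Its difference was 3.09 ± 0.53 (SE, n = 3 per group), an 8.54-fold ratio, and ranked 17 from the top among the 18193 genes. With 1 array left out at a time it was 2.72 to 3.54, and against wild-type replicate 1 alone the difference was 3.23. The Cd34 readings on wild-type replicates 1 and 2 met the definition of lost bright signal. The median they were set against was 583, itself a PU.1 ki/ki value, so this restates the group difference. The part of signal loss in the Cd34 values was not tested. In bulk RNA such as this, more cells of a type and more RNA per cell cannot be told apart, here or for the genes below.

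Adgrl4 encodes ELTD1, an adhesion G protein-coupled receptor known from developing and tumour vessels, and was read by a pair of probe sets. On the brighter, 1418058_at, the PU.1 ki/ki arrays read 1740, 907 and 1818, against 324, 93 and 60 on the wild-type arrays. On the other, 1418059_at, the PU.1 ki/ki arrays read 1397, 921 and 1924, against 35, 475 and 66 in wild type. The probe sets ordered the PU.1 ki/ki arrays alike, with replicate 3 highest and replicate 2 lowest. In wild type they disagreed, since replicate 1 was the highest on the first and the lowest on the second. The PU.1 ki/ki replicates spanned at most 2.09-fold on these probe sets, against 5.40-fold and 13.6-fold for the wild-type replicates. The differences were 3.53 ± 0.71 and 3.69 ± 1.04 (SE). Against wild-type replicate 1 alone they were 2.13 and 5.23, so the direction was shared while the size depended on the array.

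Tek encodes TIE2, the receptor tyrosine kinase for angiopoietins. Its probe set 1418788_at read 722, 730 and 523 on PU.1 ki/ki arrays, against 321, 341 and 291 on the wild-type arrays. The groups did not overlap, and the wild-type values spanned only 1.17-fold, the least of the 12 probe sets. The difference was 1.04 ± 0.18 (SE), a 2.05-fold ratio, between 0.95 and 1.19 with 1 array left out at a time and 1.02 against wild-type replicate 1 alone. Tek ranked 1524 from the top among the 18193 genes, well below Cd34 and Adgrl4 in size.

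Tie1, the sister receptor that associates with TIE2 and modulates its signalling, gave another picture. Its probe set 1416238_at read 216, 179 and 195 on PU.1 ki/ki arrays, against 136, 325 and 118 on the wild-type arrays. All PU.1 ki/ki values lay inside the wild-type range, with wild-type replicate 2 above them and replicates 1 and 3 below. The difference was 0.18 ± 0.42 (SE) and was -0.10 when wild-type replicate 3 was left out and 0.63 when replicate 2 was. Against wild-type replicate 1 alone it was 0.52, and after a further quantile normalization -0.04, so it has no stable sign.

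Esam and Procr encode surface proteins used to mark stem cells, and neither separated the groups. ESAM is an immunoglobulin-type adhesion molecule of endothelial junctions and platelets. Its probe set 1460356_at read 934, 580 and 1026 on PU.1 ki/ki arrays, against 1087, 1642 and 352 on the wild-type arrays. Wild-type replicates 1 and 2 were above every PU.1 ki/ki array and replicate 3 below every one, and the difference was -0.06 ± 0.64 (SE), from -0.70 to 0.41 with 1 array left out at a time and -0.40 with wild-type replicate 1 as the only wild-type array. Procr encodes the endothelial protein C receptor, whose expression marks the most primitive mouse stem cells. It read 420, 621 and 502 in PU.1 ki/ki, against 332, 1097 and 1287 in wild type on probe set 1420664_s_at, a type of probe set that can match more than 1 transcript. Here wild-type replicates 2 and 3 were the 2 highest arrays and replicate 1 the lowest. The difference of -0.61 ± 0.57 (SE) became -1.22 when wild-type replicate 1 was left out and -0.25 when replicate 3 was, and against wild-type replicate 1 alone it was 0.61. The negative sign for Procr thus rested on high readings of wild-type replicates 2 and 3, the arrays with the largest shares of low bright readings. The reason for their high Procr values was not tested.

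Eng encodes endoglin, a co-receptor for ligands of the TGF-beta and BMP family on endothelium and long-term stem cells. Probe set 1417271_a_at read 475, 427 and 347 on PU.1 ki/ki arrays, against 229, 367 and 399 on the wild-type arrays, while 1432176_a_at read 146, 225 and 304 in PU.1 ki/ki, against 94, 338 and 478 in wild type. Both were lowest on wild-type replicate 1, and the groups overlapped on both. The probe sets gave 0.36 ± 0.27 and -0.20 ± 0.69 (SE), opposite in sign. Against wild-type replicate 1 alone both were positive, at 0.85 and 1.19. The second was -0.39 after quantile normalization, -0.31 after median centring and 0.0019 with array weights.

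The genes most typical of endothelium were dim in both groups. Cdh5, the adhesive component of endothelial adherens junctions, read 22, 17 and 23 in PU.1 ki/ki, against 15, 23 and 32 in wild type on 1422047_at. On 1433956_at it read 11, 11 and 10 in PU.1 ki/ki, against 12, 10 and 13 in wild type, at or near the table minimum of 10. Both lay at or below the median intensity on 6 of 6 arrays. Kdr, the main signalling receptor for VEGF-A, read 23, 49 and 43 in PU.1 ki/ki, against 41, 69 and 14 in wild type on 1449379_at, at or below the median on 4 of 6 arrays. The groups overlapped on these 3 probe sets, with differences of -0.12 ± 0.31, -0.11 ± 0.14 and 0.09 ± 0.66 (SE), which were 0.43, -0.16 and -0.16 against wild-type replicate 1 alone. At this brightness a difference between the groups was not measurable with confidence.

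**Figure D2:**
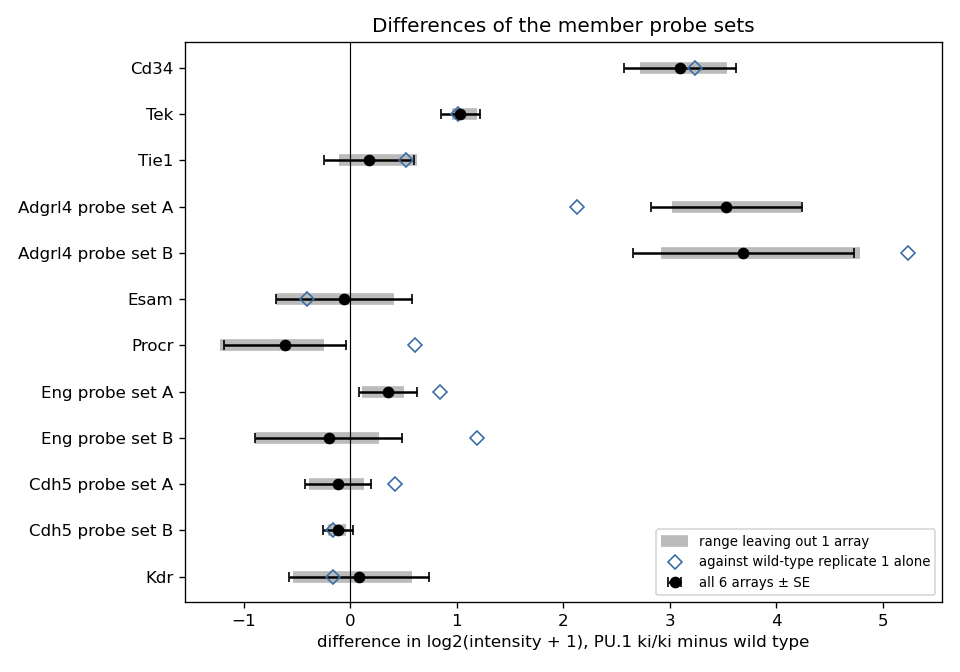
Difference in log2(intensity + 1), PU.1 ki/ki minus wild type, of the 12 probe sets, with points and bars for all 6 arrays ± SE, grey bands for the range when 1 array is left out and open diamonds for the value against wild-type replicate 1 alone. Cd34 (3.09), Adgrl4 (3.53 and 3.69) and Tek (1.04) stay above 0 in all of these, while Procr is at -0.61 with all arrays and at 0.61 against wild-type replicate 1.

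The wild-type arrays varied more than the PU.1 ki/ki arrays for nearly all of these probe sets. The standard deviation of log2(intensity + 1) was larger in wild type than in PU.1 ki/ki for 11 of the 12 probe sets, all but Tek, and for 32306 of all 45037. Its median over the 12 was 0.36 in the PU.1 ki/ki group, against 0.94 in the wild-type group, where all probe sets had medians of 0.32 and 0.56. The low wild-type values did not fall on 1 array. Over the brightest probe sets of the 9 genes, the lowest wild-type reading came from replicate 3 for 5 genes, replicate 1 for 3 and replicate 2 for 1. The highest came from replicate 2 for 4 genes, replicate 3 for 4 and replicate 1 for 1. Loss of bright signal as defined above touched 2 of 6 bright probe sets of these genes on wild-type replicate 1, 2 of 5 on replicate 2 and 2 of 5 on replicate 3, in each case probe sets of Cd34 or Adgrl4. This count can arise from the group differences of Cd34 and Adgrl4 alone, and it does not measure signal loss apart from them. Relative to each gene's own mean, the median over the 9 genes was 0.20 to 0.23 on PU.1 ki/ki arrays, against -0.48, 0.10 and -0.64 on wild-type replicates 1, 2 and 3.

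**Figure D3:**
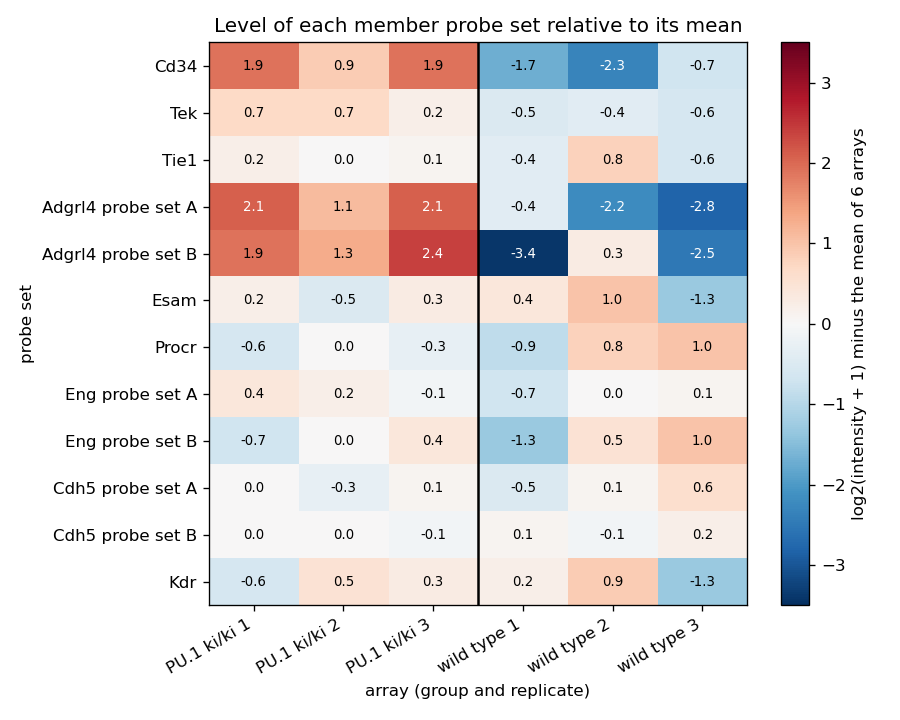
Level of each of the 12 probe sets on each array as log2(intensity + 1) minus its mean over 6 arrays, with red for above and blue for below the mean, PU.1 ki/ki arrays left and wild-type arrays right of the line. Cd34 and Adgrl4 are above their means on the 3 PU.1 ki/ki arrays, and the pair of Adgrl4 probe sets differ on wild-type replicates 1 and 2.

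Likeness of pattern was measured as the root mean square difference between log2 values over the 6 arrays, each probe set centred on its own mean, among 27697 named probe sets with no array at the minimum. Closest to Cd34 were probe sets of Fam171a1 (0.39), Rp2 (0.41), Ccni (0.43), Gng2 (0.44) and Thada (0.47), where the median of all was 1.71. Fam171a1 read 361, 188 and 596 in PU.1 ki/ki, against 54, 40 and 111 in wild type, lowest on PU.1 ki/ki replicate 2 and wild-type replicate 2 as Cd34 was. Closest to Tek were Eppk1 (0.06), Il6ra (0.10), Cnpy3 (0.12), Atg3 (0.12) and Dnajc2 (0.13), with a median of 0.76 over all. Atg3, an autophagy conjugating enzyme, read 826, 871 and 707 in PU.1 ki/ki, against 384, 346 and 324 in wild type. Closest to the brighter probe set of Adgrl4 were Nemf (0.31), Ccng1 (0.52), Zfp760 (0.53), Mob1a (0.54) and Igk (0.56), with a median of 1.96. Igk stands for a multigene family whose members the probes may not tell apart. Each of these 5 read highest on replicate 1 among the wild-type arrays, as Adgrl4 did. Closest to Procr were Bcr (0.07), Zfp764 (0.12), Mtx3 (0.13), Ston2 (0.15) and Ttyh1 (0.15), with a median of 0.90. Bcr read 109, 163 and 148 in PU.1 ki/ki, against 84, 289 and 335 in wild type. The 4 genes thus had 4 different sets of nearest neighbours. With only 6 values per probe set and 27697 compared, close neighbours are bound to be found, so no shared regulation is read from them.

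Partners of these receptors were examined in 12 lists covering 137 measured genes, with 1 probe set per gene, the brightest. Of the 137, 68 were higher and 69 lower, 0 passed an adjusted p of 0.05 over all probe sets (limma, lowest adjusted p = 0.4004), and 10 higher and 10 lower had an unadjusted p under 0.05. Over all genes 4.39% were higher and 4.27% lower at that unadjusted p. Groups did not overlap for 12 higher and 12 lower list genes, where 6.44 and 6.36% of all genes did so. Values of named partners below are given per array or as mean ± SD over 3 arrays per group, with the difference in log2(intensity + 1) in parentheses, and the adjusted p of the 47 partners named by the rule were 0.4004 to 0.878. Of these 47, 33 had other probe sets, and for 18 of these at least 1 had the opposite sign.

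The ligands and signalling proteins of the TIE receptors were 10 higher and 5 lower of 15, with a median difference of 0.08. Angpt1, the activating ligand of TIE2, read 2615, 1376 and 1698 in PU.1 ki/ki, against 1901, 2906 and 1339 in wild type, and the groups overlapped. The adaptor Grb2 averaged 831 ± 63.7 in PU.1 ki/ki cells, against 490 ± 179 in wild-type cells (0.82, no overlap), and its other probe set had the opposite sign. Pik3r1, the regulatory subunit of PI3 kinase, averaged 2013 ± 123 in PU.1 ki/ki cells, against 1424 ± 327 in wild-type cells (0.53, no overlap), with 1 of its 3 other probe sets opposite. The ligand Angpt4 averaged 27.7 ± 6.35 in PU.1 ki/ki cells, against 38.0 ± 8.89 in wild-type cells (-0.44), and Dok2, a docking protein of TIE2, averaged 420.0 ± 109 in PU.1 ki/ki cells, against 509 ± 64.0 in wild-type cells (-0.30). Of the 15, 1 had an unadjusted p under 0.05.

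VEGF ligands, receptors and adaptors were 3 higher and 9 lower of 12, with a median of -0.25. Shb, an adaptor bound by VEGF receptor 2, averaged 57.0 ± 9.85 in PU.1 ki/ki cells, against 17.7 ± 8.33 in wild-type cells (1.71, no overlap), and its wild-type values of 27, 15 and 11 neared the minimum. Nrp1, the co-receptor neuropilin 1, averaged 41.0 ± 5.00 in PU.1 ki/ki cells, against 68.7 ± 7.64 in wild-type cells (-0.73, no overlap), with 1 of its 3 other probe sets opposite. The ligand Vegfc averaged 201 ± 84.0 in PU.1 ki/ki cells, against 274 ± 32.0 in wild-type cells (-0.52), and the receptor Flt4 averaged 65.7 ± 18.5 in PU.1 ki/ki cells, against 53.3 ± 26.5 in wild-type cells (0.39). For both the groups overlapped.

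Among partners of endoglin 8 were higher and 7 lower of 15 (median 0.01). The type III receptor Tgfbr3 (betaglycan), related to endoglin, read 237, 279 and 281 in PU.1 ki/ki, against 708, 736 and 418 in wild type. This gave -1.18 ± 0.26 (SE) with no overlap, while its other probe set had the opposite sign. The type II BMP receptor Bmpr2 averaged 623 ± 131 in PU.1 ki/ki cells, against 328 ± 85.6 in wild-type cells (0.93, no overlap), with the same sign on its other probe sets. The inhibitory Smad7 averaged 127 ± 16.3 in PU.1 ki/ki cells, against 86.0 ± 1.73 in wild-type cells (0.55, no overlap), and its other probe set had the opposite sign. Bmp10, a ligand of endoglin complexes, read 13, 11 and 15 in PU.1 ki/ki, against 16, 28 and 22 in wild type (-0.69), both near the minimum.

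In the protein C pathway of Procr 6 genes were higher and 5 lower of 11 measured (median 0.08). F5, coagulation factor V, read 25, 45 and 56 in PU.1 ki/ki, against 233, 114 and 121 in wild type, without overlap and with the same sign on its other probe set (-1.86 ± 0.43, SE). F2r, the thrombin receptor PAR1, which mediates signalling of activated protein C, averaged 2110 ± 699 in PU.1 ki/ki cells, against 1422 ± 139 in wild-type cells (0.52). Proc, protein C itself, averaged 36.0 ± 5.29 in PU.1 ki/ki cells, against 23.7 ± 7.37 in wild-type cells (0.62), and Serpinc1 (antithrombin) 19.7 ± 3.51 in PU.1 ki/ki cells, against 25.3 ± 4.16 in wild-type cells (-0.35). Proc and Serpinc1 lay at or below the median on every array.

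Junction partners of VE-cadherin were 6 higher and 4 lower of 10 (median 0.36). Pkp4, a plakophilin of the p120 family, averaged 253 ± 37.2 in PU.1 ki/ki cells, against 429 ± 15.7 in wild-type cells (-0.77, no overlap), and the actin linker Vcl averaged 467 ± 24.1 in PU.1 ki/ki cells, against 606 ± 38.1 in wild-type cells (-0.37, no overlap). The other probe set of Vcl had the opposite sign. Krit1, a junction-stabilising scaffold, averaged 182 ± 65.6 in PU.1 ki/ki cells, against 86.7 ± 27.3 in wild-type cells (1.05, no overlap), with 2 of its 4 other probe sets opposite. Ctnnd1 (p120 catenin) read 1543, 1282 and 1747 in PU.1 ki/ki, against 1519, 675 and 159 in wild type, and its difference of 1.47 was -0.01 against wild-type replicate 1 alone.

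Relatives and partners of CD34 were 3 higher and 3 lower of 6 measured (median -0.02). Podxl, the podocalyxin related to CD34, read 213, 418 and 191 in PU.1 ki/ki, against 373, 329 and 92 in wild type, overlapping. Endoglycan (Podxl2), the third of that family, averaged 29.3 ± 2.31 in PU.1 ki/ki cells, against 40.7 ± 6.66 in wild-type cells (-0.45, no overlap). The membrane linker Ezr averaged 417 ± 102 in PU.1 ki/ki cells, against 290.0 ± 19.1 in wild-type cells (0.49, no overlap), and the adaptor Crkl, bound by CD34, averaged 821 ± 256 in PU.1 ki/ki cells, against 697 ± 349 in wild-type cells (0.30). The other probe set of Ezr had the opposite sign. The scaffold Slc9a3r2 averaged 199.7 ± 122 in PU.1 ki/ki cells, against 442 ± 250 in wild-type cells (-1.07, overlapping).

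Junctional relatives of ESAM were 3 higher and 6 lower of 9 (median -0.18). Cxadr, the coxsackie and adenovirus receptor, averaged 40.7 ± 9.71 in PU.1 ki/ki cells, against 23.7 ± 4.04 in wild-type cells (0.74, no overlap, dim), with 1 of its 4 other probe sets opposite. Jam3 read 102, 73 and 74 in PU.1 ki/ki, against 2501, 107 and 114 in wild type, and its difference of -1.92 was -0.43 without wild-type replicate 1. The scaffolds Magi1 and Pard3 averaged 41.0 ± 19.1 and 39.3 ± 3.21 in PU.1 ki/ki cells, against 52.0 ± 11.1 and 33.3 ± 5.51 in wild-type cells.

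Other adhesion G protein-coupled receptors were 6 higher and 2 lower of 8 (median 0.24). None showed a difference near that of Adgrl4. Adgrl1 averaged 247 ± 182 in PU.1 ki/ki cells, against 105 ± 102 in wild-type cells (1.33, overlapping), and Adgrf5 averaged 35.3 ± 4.51 in PU.1 ki/ki cells, against 20.3 ± 9.07 in wild-type cells (0.85, no overlap, dim). The other probe set of Adgrf5 had the opposite sign. Adgrg1, also known as GPR56 and a marker of stem cells, averaged 3513 ± 153 in PU.1 ki/ki cells, against 4422 ± 1676 in wild-type cells (-0.26), and Adgrg3 averaged 51.0 ± 11.8 in PU.1 ki/ki cells, against 124 ± 81.2 in wild-type cells (-0.92).

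**Figure D4:**
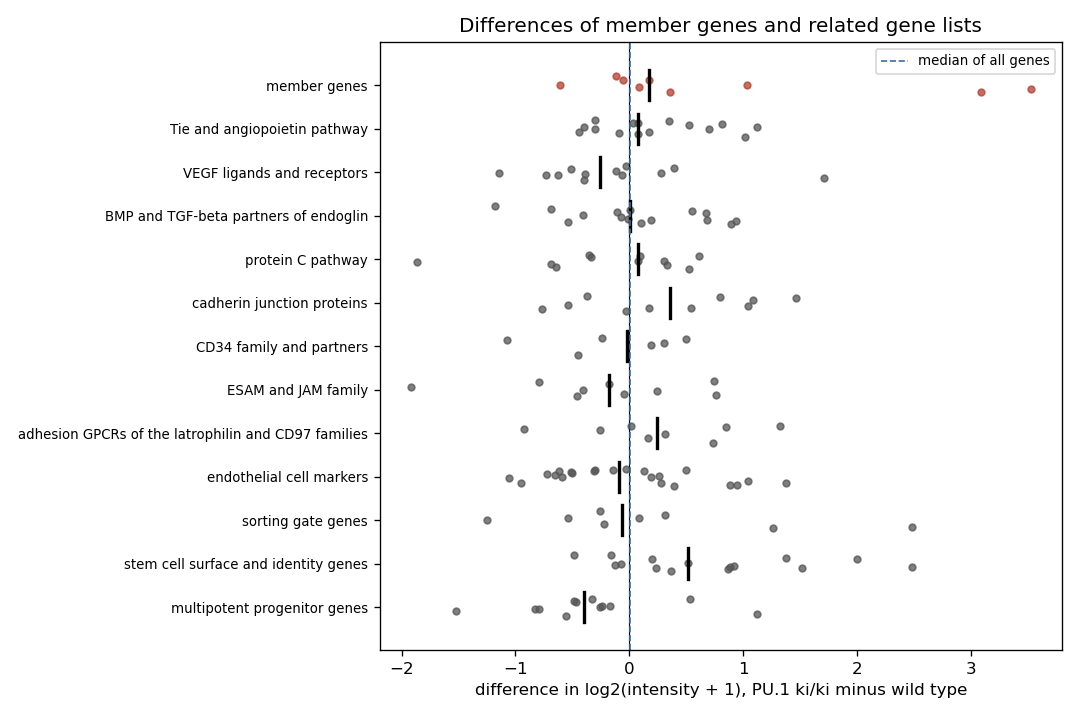
Difference in log2(intensity + 1), PU.1 ki/ki minus wild type, of the 9 genes (red) and of each gene of the 12 related lists (grey), 1 probe set per gene, with black bars for list medians and a dashed line at the median of all genes (0.01). Cd34 and Adgrl4 lie to the right of every listed partner, and list medians run from -0.40 to 0.52.

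Markers of vessel endothelium were given for the whole list of 22, since endothelial cells can express all 9 genes. Of these markers 10 were higher and 12 lower (median -0.09), and their summed intensity was 2431 to 3471 on PU.1 ki/ki arrays, against 2406 to 2966 on wild-type arrays. Vwf, which is also in the stem cell list, made up 815 to 1435 of the PU.1 ki/ki sums and 298 to 617 of the wild-type sums. Plvap, Sox7, Sox17, Clec14a and Tmem100 were at or below the array median on all 6 arrays, as was Cdh5. Clec14a, an endothelial lectin, nevertheless averaged 36.7 ± 0.577 in PU.1 ki/ki cells, against 17.3 ± 2.31 in wild-type cells (1.05, no overlap), and its other probe set had the opposite sign. Vwf, von Willebrand factor, which platelet-biased stem cells also express, read 815, 1435 and 1357 in PU.1 ki/ki, against 617, 490 and 298 in wild type (1.38 ± 0.37 SE, no overlap). Sox7 averaged 17.3 ± 2.52 in PU.1 ki/ki cells, against 29.3 ± 5.03 in wild-type cells (-0.72, no overlap), and Egfl7 averaged 399.7 ± 67.6 in PU.1 ki/ki cells, against 573 ± 152 in wild-type cells (-0.50).

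The cells were also set against their gate and against neighbouring stages. Kit, a gate receptor, was above the array median on every array, at 617, 452 and 1368 in PU.1 ki/ki, against 374, 1622 and 1001 in wild type. The difference of Slamf1 was 2.48 with overlapping groups, 1.77 to 3.54 with 1 array left out at a time and 0.36 against wild-type replicate 1 alone. The myeloid marker Itgam was at 11 to 19 on all arrays. Cd3e, of the T cell receptor, averaged 44.3 ± 13.1 in PU.1 ki/ki cells, against 108 ± 38.0 in wild-type cells (-1.25, no overlap), Cd8a 34.7 ± 6.11 in PU.1 ki/ki cells, against 52.3 ± 18.9 in wild-type cells (-0.54), and Cd4 99.0 ± 45.5 in PU.1 ki/ki cells, against 42.0 ± 21.2 in wild-type cells (1.26). Of 8 measured gate and lineage genes, 4 were higher and 4 lower (median -0.07).

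Stem cell genes other than the 9 were 11 higher and 4 lower of 15 measured (median 0.52), and genes of multipotent progenitors were 2 higher and 10 lower of 12 (median -0.40), with 0 passing in either list. Beside Vwf, the homeobox gene Hoxb5 averaged 430.0 ± 230 in PU.1 ki/ki cells, against 144 ± 64.1 in wild-type cells (1.52, overlapping). Itga6 averaged 630.0 ± 207 in PU.1 ki/ki cells, against 936 ± 517 in wild-type cells (-0.49), and Ptger4 averaged 541 ± 58.5 in PU.1 ki/ki cells, against 622 ± 181 in wild-type cells (-0.16). Of progenitor genes, the granule protease Ctsg read 804, 822 and 806 in PU.1 ki/ki, against 3739, 1527 and 2219 in wild type (-1.52 ± 0.35 SE, no overlap), and Prtn3 averaged 738 ± 94.5 in PU.1 ki/ki cells, against 1084 ± 443 in wild-type cells (-0.49). Cd27, a costimulatory receptor of early progenitors, averaged 1740 ± 209 in PU.1 ki/ki cells, against 871 ± 459 in wild-type cells (1.12, no overlap), and Flt3, the receptor of lymphoid-primed progenitors, averaged 298 ± 196 in PU.1 ki/ki cells, against 259 ± 267 in wild-type cells (0.53). The summed intensity of the 12 progenitor genes was 10046 to 11227 on PU.1 ki/ki arrays, against 11647 to 20420 on wild-type arrays. The sum of 20420 came from wild-type replicate 1 alone, and the lowest wild-type sum, on replicate 3, lay close to the PU.1 ki/ki range. Cd34 thus stood higher in PU.1 ki/ki while 10 of 12 progenitor genes stood lower, and the part of cell stage in the Cd34 values was not tested.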

How the data were processed

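RNA of sorted mouse stem cells was read on 6 arrays. Their groups come from titles and source names, and a description field that speaks of embryos was set aside. The values were the intensities deposited by the authors, 1 per probe set and array, for which the submitters' processing notes name RMA. Its version is not given in the sources used here. The table held linear whole numbers between 10 and 27574, and no conversion from log2 or floor is described in those sources. No further normalization was applied. After 64 control probe sets were left out, 45037 were tested. The platform annotation gave 1 symbol to 34945, several genes to 932 and none to 9160, and 34741 of the first matched RefSeq gene numbers with 0 symbols updated. Where a gene needed 1 probe set, the one with the highest mean intensity was used.

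Genotype was the only term of a linear model on log2(intensity + 1) in limma 3.58.1 (R 4.3.3; lmFit, eBayes), and p-values were adjusted by Benjamini-Hochberg across the 45037 probe sets, with 0.05 as the threshold. The model was also run on simulated data, and no outcome of that run is used here. Such a run does not show how well the model suits these arrays, whose groups differed in scatter. The 9 genes and the 12 lists were chosen with earlier results of these data known. Named partners were, per list, those with the 2 lowest p among higher and the 2 lowest among lower genes, with a few others (Angpt1, Podxl, Kit, Itgam, Cd48, and in the closing section Ctnnb1 and Vegfd) chosen after their values were seen. For arrays, their number limits the precision. Alternatives were quantile normalization, median centring, a pseudocount of 16, leaving out dim probe sets, a trended and robust prior, array weights, a block for replicate number, the mean of all probe sets of a gene, each array left out in turn, and wild-type replicates 2 and 3 left out together. Of 147 genes listed, 137 were measured. The rest were not analysed here. Figures used matplotlib 3.10.9.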

Additional observations from a re-analysis of the deposited data

How the results depend on the processing

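No alternative called any probe set, with 0 past the adjusted threshold in all 14. At an unadjusted p under 0.05 limma gave 3731 probe sets, 2535 to 7183 when single arrays were left out (7183 without wild-type replicate 1), 5574 without wild-type replicates 2 and 3 (the lone wild-type array is then assumed to vary like the PU.1 ki/ki arrays), and 1701 without dim probe sets. These split into 2072 higher and 1659 lower, 1558 and 2243 after quantile normalization and 1593 and 2130 after median centring, which moved the median of all probe sets to -0.11. Among the brighter probe sets alone that median was 0.16. The replicate block left 0 past the adjusted threshold and 3369 at the unadjusted one. Deviations of same-numbered arrays correlated at -0.02 to 0.02, so the numbers were not taken to pair the arrays.

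The median of the 9 genes was -0.005 to 0.61 over the alternatives, highest against wild-type replicate 1 alone. Cdh5 and Kdr drop out with the dim probe sets, so that setting gave no median. Of 165 values of single member probe sets, 6 moved by more than 1 SD, all without wild-type replicates 2 and 3. That count leaves out smaller shifts that changed a sign. With single arrays left out, the sign changed for Tie1 (-0.10 to 0.63), Esam (-0.70 to 0.41) and Kdr (-0.53 to 0.58). It also changed for the brighter Cdh5 probe set (-0.39 to 0.13) and the dimmer Eng one (-0.90 to 0.27). Procr changed sign against wild-type replicate 1 alone (0.61). Partners were counted by sign. Of 645 values of partners 636 kept their direction. The rest changed sign. Without wild-type replicates 2 and 3 these were Flt4 (-0.32), Ctnnd1 (-0.0068), Crkl (-0.45), Slc9a3r2 (0.19) and Adgrl1 (-0.16). When single arrays were left out, Flt4 ran from -0.0228 to 0.74, Flt3 from -0.0538 to 1.35, Adgrg1 from -0.55 to 0.0144 and Ptger4 from -0.42 to 0.0185. The causes were not tested. Signal close to the minimum limits Cdh5, Kdr, Shb, Bmp10 and Clec14a. Sox7, Adgrf5, Serpinc1, Proc and Pard3 were also dim, at or below the array median on all 6 arrays, as were Cxadr and Angpt4 on 5.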

Other observations

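Some partners owed their wild-type spread to 1 array. Ctnnb1, encoding beta-catenin, read 5214, 5598 and 4309 in PU.1 ki/ki, against 5785, 321 and 7048 in wild type, so that replicate 2 alone was low. Vegfd, a ligand of VEGF receptors, read 12, 19 and 12 in PU.1 ki/ki, against 156, 10 and 20 in wild type, where replicate 1 alone stood out, as it did for Jam3. These genes were picked after their values were seen.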
